A study of Mus musculus with 6 samples.

Results

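The smooth muscle contractile isoform genes code for the versions of actin, myosin and their binding proteins that smooth muscle cells use to contract. The members were fixed by name as *Acta2*, *Actg2*, *Actc1*, *Tagln*, *Cnn1*, *Myh11*, *Myl9*, *Lmod1*, *Smtn* and *Des*, and all 10 were rows of the deposited table of 22063 mouse genes. No measured value entered that rule, but the list was chosen with earlier results of these data known. *Actc1* codes for the actin of the cardiac sarcomere. The cells were primary fibroblasts of the heart, isolated from mice whose *Tet3* alleles are floxed, and the labels give the tissue as heart and the cell type as fibroblast. Fibroblasts of the GFP group had received an adenovirus coding for green fluorescent protein and those of the CRE group an adenovirus coding for Cre recombinase, which cuts out floxed DNA. TGF-β was given to both groups, so all values describe treated, virus-transduced cells. Each group held 3 libraries. The labels call the GFP group control and the CRE group *Tet3* knockout, and give neither the age nor the number of the animals.

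Smooth muscle contracts when the regulatory light chain of myosin is phosphorylated and myosin pulls on actin filaments, which transgelin, calponin, smoothelin and leiomodin bind and organise. Fibroblasts normally rely on the nonmuscle relatives of these proteins. Under TGF-β they can become myofibroblasts, contractile cells that are recognised by α-smooth muscle actin, the product of *Acta2*, in stress fibres. The genes are classically driven by serum response factor (SRF) and its partners of the myocardin family, which act through a DNA element called the CArG box.

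The targeted gene, *Tet3*, stood at 64.9, 54.4 and 52.0 CPM (the normalised read count, scaled to the effective library size) in GFP replicates 1, 2 and 3 and at 34.5, 35.9 and 33.6 CPM in the CRE replicates. On average the CRE libraries held 60.8% of the GFP level (log2 fold change −0.72 ± 0.08 SE, edgeR adjusted p = 5.36e-05), so transcript of the gene was still counted in every CRE library. Total counts ran from 17002126 to 20343590 per library, and a count of 0 allowed up to 0.156 to 0.187 CPM, counting error only. Of the genes in the table, 12862 had enough counts to be tested. Markers of fibroblasts were abundant in every library, their summed level being 27600 to 28800 CPM in GFP and 16700 to 18200 CPM in CRE, led by *Col1a1*. Even so, 7 of the 8 fibroblast markers fell in CRE (edgeR adjusted p under 0.05), beside 25.7% of all tested genes. The median log2 fold change of the 8 markers was −0.77, and the part of this fall in the members' differences was not tested. The study calls its replicates biological, but the labels do not say whether the libraries of a group came from separate cultures, so the p-values measure the spread between these libraries, which may be technical.

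Most smooth muscle genes were lower in the CRE group. Of the 10 members, 9 had enough counts to be tested, 8 of these fell, none rose and *Smtn* did not pass the test (edgeR, adjusted p under 0.05 over all tested genes). No tested member was higher at an unadjusted p under 0.05 either, nor by DESeq2 or limma-voom. Over all tested genes, 25.7% were called lower and 25.5% higher by the same rule. With libraries scaled by total count alone, which shifted the middle of all log2 fold changes from 0.01 to 0.17, those calls were 2083 lower and 5529 higher instead of 3306 and 3277, and the same 8 members were still lower. The 8 genes had no CRE library as high as the lowest GFP library, whereas 29.6% of all tested genes were separated downwards in that way. The members' median log2 fold change was −0.94, where the median of all tested genes was 0.01. Their summed level was 2170 to 2560 CPM in the GFP libraries and 979 to 1130 CPM in the CRE libraries. In bulk libraries like these, fewer cells of a type and less RNA per cell cannot be told apart.

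**Figure D1:**
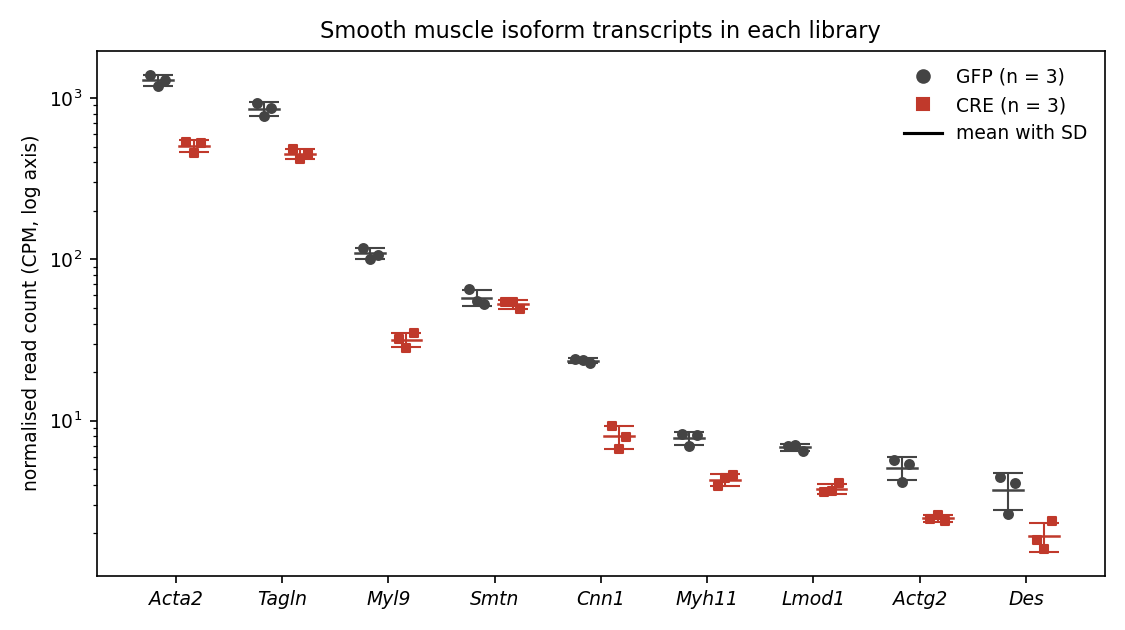
Normalised read count (CPM, log axis) of each tested smooth muscle contractile isoform gene in the 3 GFP and the 3 CRE libraries, with bars at the group mean and its SD. The CRE points lie below the GFP points for 8 genes and overlap them for *Smtn*, and *Actc1*, with at most 1 count per library, is not drawn.

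Of the actins among the members, *Acta2* had the highest level. The gene lies at chr19:34241090-34255590 on the minus strand (GRCm38). It had 1398, 1194 and 1288 CPM in GFP replicates 1, 2 and 3 and 535.5, 459.2 and 525.1 CPM in the CRE replicates. Every CRE library was therefore below every GFP library, with 39.2% of the GFP level on average. The means were 1294 ± 102 and 506.6 ± 41.4 CPM (SD, n = 3). The log2 fold change was −1.35 ± 0.07 SE (edgeR adjusted p = 5.08e-07). Only 2.25% of tested genes had a lower log2 fold change.

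*Actg2*, the γ-actin of visceral smooth muscle (chr6:83512905-83536265, minus strand), was a rare transcript. Its counts were 92, 74 and 104 in GFP and 46, 47 and 45 in CRE. The CRE libraries lay close together at 2.38 to 2.60 CPM, beneath 4.17 to 5.72 CPM in GFP. This gave a log2 fold change of −1.03 ± 0.17 SE (edgeR adjusted p = 7.04e-04), an interval of −1.42 to −0.65. *Actc1* (chr2:114047282-114053548, minus strand) was at 1, 0 and 0 counts in GFP and 1, 0 and 0 counts in CRE, below the 3 counts used as a floor in every library. It did not pass the filter on low counts and no difference was detectable at this depth.

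The actin-binding members came next. *Tagln* codes for transgelin, or SM22α, an early marker of smooth muscle differentiation (chr9:45929619-45936058, minus strand). It had 933.3, 773.6 and 869.1 CPM in GFP and 482.7, 418.4 and 448.2 CPM in CRE. Again the groups were apart, the lowest GFP library standing well above the highest CRE library. On average 52.4% of the GFP level remained in CRE, and the log2 fold change was −0.93 ± 0.07 SE (edgeR adjusted p = 4.95e-06). An antisense gene, *Gm48529*, which has no row in the table, covers 62.4% of the exonic bases of *Tagln*, and whether the strand was used in counting is not given in the sources used here, so reads of the antisense gene could be included.

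*Cnn1* codes for the basic calponin of smooth muscle, which binds actin and inhibits the myosin ATPase (chr9:22099216-22109630, plus strand). It had 24.2, 23.9 and 22.7 CPM in GFP, a narrow spread, and 9.29, 6.70 and 7.97 CPM in CRE. Mean CRE level was 33.8% of that in GFP, with a log2 fold change of −1.56 ± 0.11 SE (edgeR adjusted p = 2.67e-06). *Lmod1*, a leiomodin that nucleates actin filaments in smooth muscle (chr1:135324807-135368065, plus strand), had 112, 126 and 125 counts in GFP and 67, 66 and 78 in CRE. Its groups did not overlap either. The level went from 6.85 ± 0.32 to 3.79 ± 0.28 CPM (SD, n = 3), and the log2 fold change was −0.85 ± 0.13 SE (edgeR adjusted p = 3.63e-04).

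*Smtn* was the exception. It codes for smoothelin, an actin-associated protein of fully contractile smooth muscle (chr11:3517523-3540612, minus strand). The GFP libraries had 65.2, 55.0 and 52.8 CPM and the CRE libraries 54.3, 54.5 and 49.1 CPM, so the ranges overlapped and GFP replicate 1 alone stood high. The log2 fold change of −0.13 ± 0.08 SE had an interval of −0.31 to 0.05 (edgeR adjusted p = 0.199). That interval excludes the fold changes estimated for the other tested members. With libraries scaled by total count alone, or on FPKM (reads scaled to transcript length and library size), the sign turned to a value of 0.03. The exons of *Smtn* overlap an antisense gene, *Gm11946*, over 16.3% of their bases.

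For the myosin motor, the light chain fell most. *Myl9* codes for the regulatory light chain whose phosphorylation starts contraction (chr2:156775420-156781658, plus strand). It had 118.1, 101.1 and 107.2 CPM in GFP and 31.9, 28.4 and 34.9 CPM in CRE. All CRE libraries were less than the lowest GFP library by a wide margin, and held 29.1% of the GFP level on average. The log2 fold change of −1.78 ± 0.08 SE (edgeR adjusted p = 2.53e-07) was the lowest of the tested members, and 1.21% of tested genes had a lower one. *Myh11* codes for the smooth muscle myosin heavy chain, the most restricted marker of the lineage (chr16:14194535-14291372, minus strand). It had 134, 124 and 156 counts in GFP and 73, 80 and 87 in CRE, or 7.81 ± 0.72 and 4.32 ± 0.35 CPM (SD, n = 3). Its groups were also separate. It had a log2 fold change of −0.85 ± 0.13 SE (edgeR adjusted p = 3.87e-04), an interval of −1.15 to −0.56 that lies apart from that of *Myl9*, −1.96 to −1.60.

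*Des* codes for desmin, the muscle intermediate filament (chr1:75360329-75368579, plus strand), and was the rarest tested member by count. It had 72, 47 and 79 counts in GFP and 34, 29 and 45 counts in CRE. In CPM the closest libraries were GFP replicate 2 at 2.65 and CRE replicate 3 at 2.38, so the groups only just missed each other. The log2 fold change of −0.94 ± 0.25 SE (edgeR adjusted p = 0.00937) had the widest interval of the tested members, −1.50 to −0.39.

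Promoters of the members differ in matches to the CArG box, and those of *Acta2*, *Myl9* and *Smtn* are shown because these genes had the most abundant transcript, the lowest fold change and no change past the test. RefSeq sequences on GRCm38.p6, from 250 bases before to 50 bases after the annotated start, matched 7 of the 10 members by symbol, and *Actg2*, *Tagln* and *Myh11* had none. Capitals mark a CArG box on either strand, exact or with 1 of the 6 A/T core letters replaced by G or C. The windows are chr19:34255324-34255623 on the minus strand for *Acta2*, chr2:156775214-156775513 on the plus strand for *Myl9* and chr11:3539243-3539542 on the minus strand for *Smtn*, each written in the direction of transcription.
Acta2: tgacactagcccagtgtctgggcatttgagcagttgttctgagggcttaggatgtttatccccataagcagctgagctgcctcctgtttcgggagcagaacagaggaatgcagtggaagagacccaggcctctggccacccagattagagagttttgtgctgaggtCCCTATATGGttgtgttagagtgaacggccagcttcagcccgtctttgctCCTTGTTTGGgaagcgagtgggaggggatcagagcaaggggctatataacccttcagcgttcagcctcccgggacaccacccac
Myl9: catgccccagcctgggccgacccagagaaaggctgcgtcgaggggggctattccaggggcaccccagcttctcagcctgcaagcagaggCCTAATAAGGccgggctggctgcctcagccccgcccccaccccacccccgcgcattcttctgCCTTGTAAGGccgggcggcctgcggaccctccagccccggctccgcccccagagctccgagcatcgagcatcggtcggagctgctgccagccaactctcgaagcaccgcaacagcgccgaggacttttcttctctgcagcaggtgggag
Smtn: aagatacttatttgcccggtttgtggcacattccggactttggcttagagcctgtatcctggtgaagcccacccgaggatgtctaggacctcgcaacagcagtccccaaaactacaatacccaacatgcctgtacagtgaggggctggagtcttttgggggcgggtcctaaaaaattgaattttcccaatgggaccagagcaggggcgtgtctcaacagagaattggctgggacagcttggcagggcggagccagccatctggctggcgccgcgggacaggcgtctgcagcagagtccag

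The *Acta2* window held a pair of CArG boxes with a departure from the core, the first starting 84 bases and the second 34 bases before the start. The *Myl9* window held an exact box 161 bases before the start and another with a departure 99 bases before it. No box of either kind was in these letters for *Smtn*, and the same held for *Cnn1*, *Lmod1* and *Des*. The *Smtn* window lies inside the annotated gene, which has 10 transcripts. For each gene, no other annotated start and no sequence beyond the window was searched. *Actc1*, which was practically without counts, had an exact box 47 bases before its start. An exact box was found in 1.63% of 32851 promoters of that length and a box with the departure in 8.5%. The motif CATTCC, searched on both strands, was in the windows of *Acta2*, *Lmod1* and *Smtn*, beside 14.7% of all promoters. The number of CpG dinucleotides, the sites that TET enzymes act on once methylated, was 6 in the *Acta2* and *Cnn1* windows, 7 in *Lmod1*, 11 in *Smtn* and *Des* and 20 in *Myl9*, with a median of 7 over all promoters. DNA methylation and factor binding were not measured in these libraries.

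The relatives of the members, from lists of gene families, moved in both directions. The β- and γ-actins of all cells, *Actb* and *Actg1*, had log2 fold changes of −0.09 ± 0.06 SE and −0.19 ± 0.06 SE. *Actg1* passed the test (edgeR adjusted p = 0.0153) but not with libraries scaled by total count, and *Actb* did not (edgeR adjusted p = 0.229). The actin of skeletal muscle, *Acta1*, moved the other way. It had 7, 5 and 7 counts in GFP and 45, 32 and 34 in CRE, 0.360 and 1.995 CPM on average. This rare transcript rose by a log2 fold change of 2.45 ± 0.32 SE (edgeR adjusted p = 1.22e-04). The skeletal muscle regulators *Myod1* and *Myog* had no count in any library.

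Calponins of nonmuscle cells fell too, but by less than *Cnn1*. *Cnn2* had a log2 fold change of −0.35 (edgeR adjusted p = 9.69e-04) and *Cnn3* one of −0.51 (edgeR adjusted p = 1.16e-05). *Tagln2*, the nonmuscle transgelin, and *Myh9*, the main nonmuscle myosin heavy chain, did not pass at −0.09 and −0.07. Those values turned positive when total counts or FPKM set the scale. *Myh10* was near the threshold at −0.14 (edgeR adjusted p = 0.044) and its sign also turned on those scales. Vimentin, *Vim*, the intermediate filament of fibroblasts, fell by 0.29 on the log2 scale (edgeR adjusted p = 1.29e-04). With libraries scaled by total count alone, the log2 fold changes were −0.13 for *Vim*, −0.19 for *Cnn2* and −0.34 for *Cnn3*, all still past the threshold.

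The nonmuscle regulatory light chains parted. *Myl12b* rose from 39.2 ± 2.16 to 78.9 ± 5.70 CPM (SD, n = 3), and its log2 fold change was 1.01 ± 0.07 SE (edgeR adjusted p = 1.67e-06). *Myl12a*, the more abundant at 384.9 CPM in GFP, had a log2 fold change of −0.22 (edgeR adjusted p = 0.00529), a call that was lost when libraries were scaled by total count or FPKM was used. *Myl12a* and *Myl12b* share 29.6% and 33.0% of their stretches of 50 bases with other genes. For *Myl12b*, all of these occur in a second annotated gene of the same name, and only some also occur in *Myl12a*. On the same strand, this second gene covers 26.7% of the exonic bases of *Myl12b* and 13.8% of those of *Myl12a*. The split of reads among these genes is therefore uncertain, which bears on the rise of *Myl12b* and on the ratio of *Myl9* to its relatives. Of such stretches, *Actg1* shared 56.7%, mostly with pseudogenes, and *Actb* 14.2%, which bears on the ratios and shares that use them. The members shared at most 0.4% of theirs. *Smtnl2*, a smoothelin-like gene, fell from 7.75 to 2.94 CPM with a log2 fold change of −1.40 ± 0.18 SE (edgeR adjusted p = 1.07e-04), unlike *Smtn*. Of the tropomodulins, which cap actin filaments, *Tmod1* fell (−1.17, edgeR adjusted p = 0.00657), *Tmod3* rose (0.19, edgeR adjusted p = 0.00432) and *Tmod2* did not pass at 0.18.

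**Figure D2:**
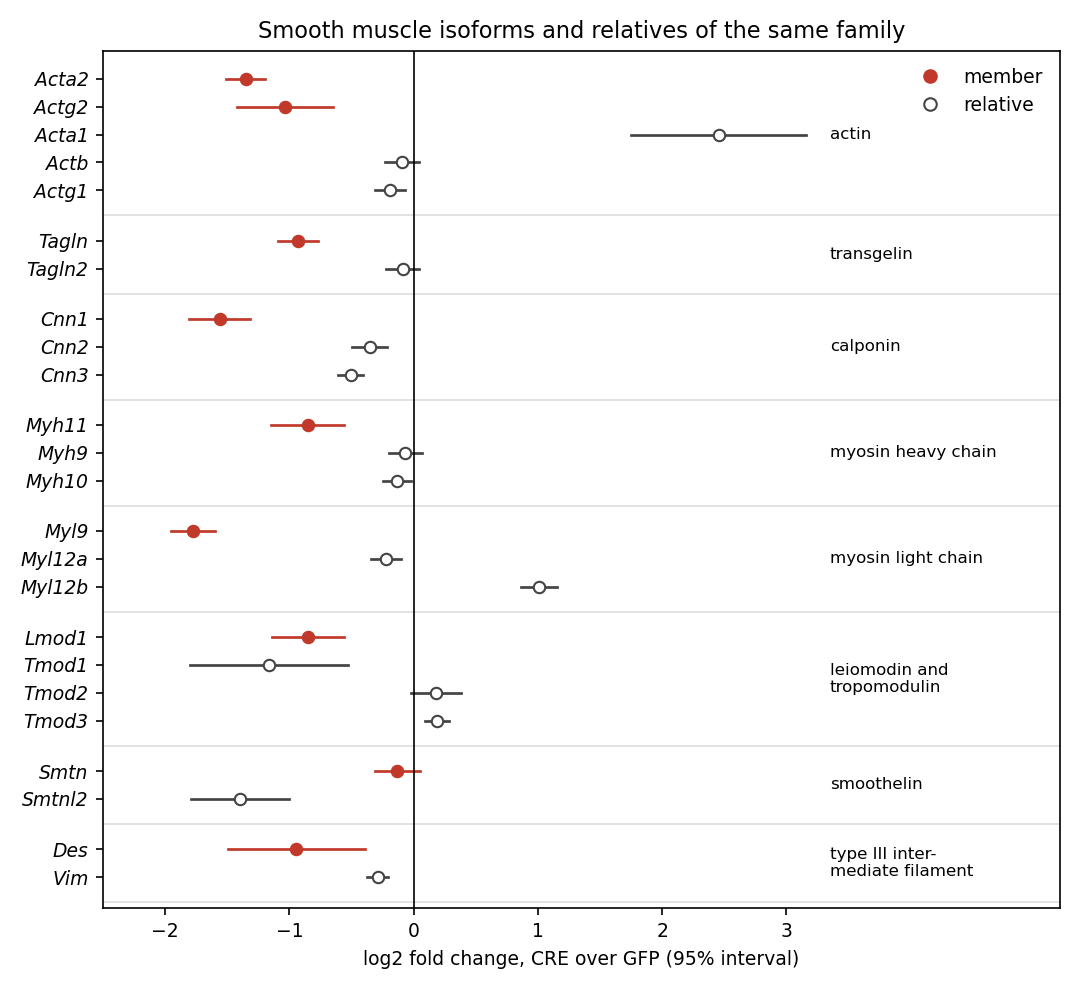
Log2 fold change of CRE over GFP with its 95% interval for each tested member (filled) and tested relative of the same gene family (open), the families separated by lines. The members lie between −1.78 and −0.85 apart from *Smtn* at −0.13, while *Acta1* and *Myl12b* lie to the right of 0.

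Ratios within a library do not depend on how libraries are scaled. Of the members, 8 were therefore set against the summed FPKM of the nonmuscle genes of their families. No ratio was computed for *Smtn*, the tested member that did not fall, or for *Actc1*. *Acta2* amounted to 33.8%, 33.5% and 36.0% of *Actb* and *Actg1* together in the GFP libraries and to 15.3%, 13.6% and 16.2% in the CRE libraries. *Myl9* amounted to 23.2%, 21.6% and 21.5% of *Myl12a* and *Myl12b* in GFP and to 6.43%, 6.22% and 7.70% in CRE. *Tagln* was the only one to exceed its relatives, at 178% to 209% of *Tagln2* and *Tagln3* in GFP and 102% to 113% in CRE. *Cnn1* went from 4.19% to 4.58% of *Cnn2* and *Cnn3* down to 1.76% to 2.33%.

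The rare members gave lower ratios, again smaller in CRE. *Lmod1* was at 3.22% to 3.58% of *Tmod2* and *Tmod3* in GFP and 1.54% to 1.87% in CRE. *Myh11* was at 0.472% to 0.538% of the nonmuscle heavy chains in GFP and 0.256% to 0.316% in CRE, and *Actg2* was at 0.209% to 0.258% and 0.119% to 0.152% of the nonmuscle actins. *Des* alone overlapped, at 0.118% to 0.191% of *Vim*, *Prph* and *Gfap* in GFP and 0.0857% to 0.126% in CRE. For 7 of the 8 ratios the groups were apart, which with 3 libraries against 3 is the smallest two-sided exact permutation p available, 0.1 (adjusted over the 8 ratios 0.114). For *Des* the exact permutation p was 0.2. Differences of the mean log2 ratio lay between −1.71 for *Myl9* and −0.64 for *Des*. As a share of the FPKM of the 6 actin genes, *Acta2* was 25.6% ± 0.77 in GFP and 13.0% ± 1.0 in CRE, *Actb* 29.7% ± 0.26 and 36.6% ± 0.91, and *Actg1* 44.5% ± 0.58 and 50.2% ± 0.33 (SD, n = 3).

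**Figure D3:**
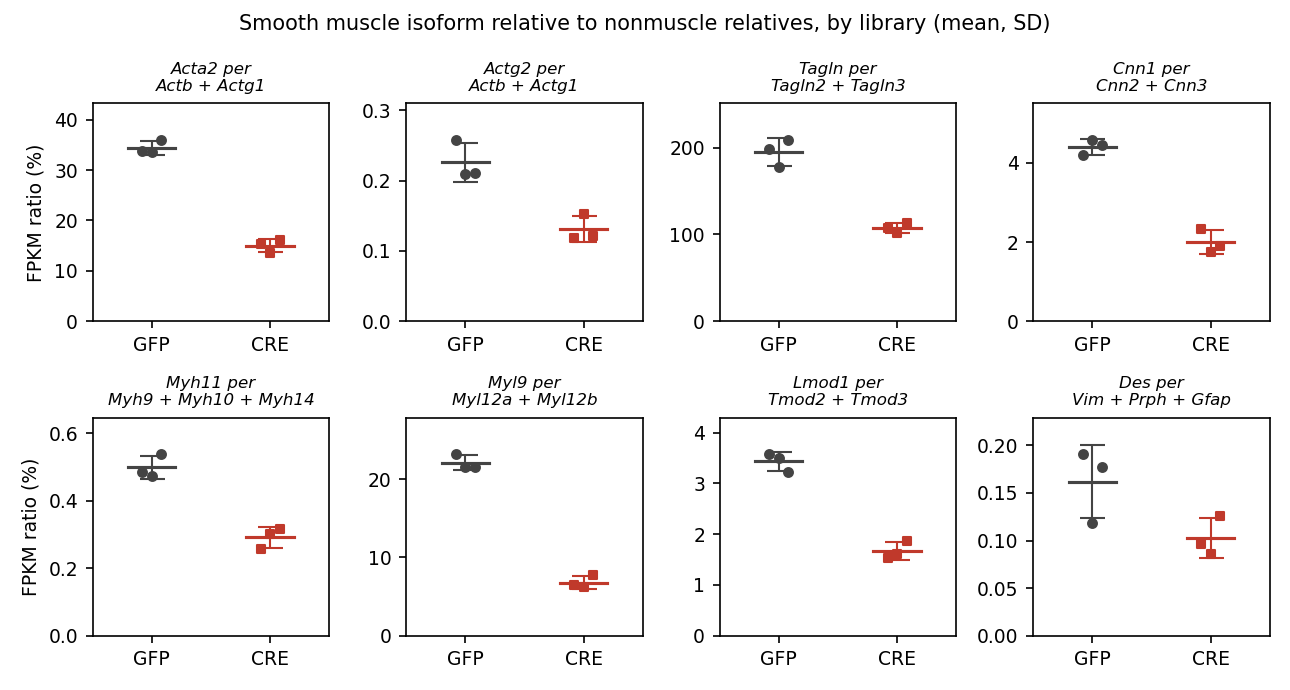
FPKM of 8 members as a percent of the summed FPKM of the nonmuscle genes of their families. Each has a panel with a linear axis from 0, a point per library and bars at the group mean and its SD. *Smtn* and *Actc1* had no ratio and are not drawn. The CRE points sit under the GFP points for 7 members and overlap them for *Des*.

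Set side by side per transcript length, in FPKM, the members covered a wide range of levels. In the GFP libraries *Acta2* was highest at 643 ± 50.3 FPKM, then *Tagln* at 515 ± 48.1 and *Myl9* at 91.1 ± 7.11 (SD, n = 3). *Smtn* at 16.5 ± 1.70 and *Cnn1* at 15.7 ± 0.21 overlapped and cannot be ordered. *Actg2* followed at 4.24 ± 0.86 and *Lmod1* at 1.64 ± 0.07, and *Des* at 1.17 ± 0.30 overlapped *Myh11* at 1.13 ± 0.10. *Acta2* and *Tagln* together made up 89.5% to 91.4% of the members' summed FPKM in every library of both groups, so the sum follows these genes. In the CRE libraries *Tagln* at 302 ± 16.9 and *Acta2* at 284 ± 27.9 FPKM overlapped. *Smtn*, at 16.8 ± 1.05, stood clear of *Cnn1* at 5.84 ± 1.08 there, and *Myh11* and *Des* overlapped again at 0.698 and 0.676. The ratio of *Acta2* to *Tagln*, looked at after the values were seen, was 1.25 ± 0.02 in GFP and 0.941 ± 0.06 in CRE (SD, n = 3). Its groups were apart, at the smallest exact permutation p available (0.1).

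Of 28 partners of the contractile apparatus, all tested, 16 fell, 4 rose and 8 did not pass (edgeR), against 25.7% lower and 25.5% higher over all tested genes. The partners' median log2 fold change was −0.21. It was smaller in size with libraries scaled by total count alone, which moved the median of all tested genes to 0.17. *Prkg1*, the cGMP-dependent kinase that relaxes smooth muscle, fell from 89.1 ± 3.74 to 36.6 ± 3.74 CPM (SD, n = 3), by 1.28 on the log2 scale (edgeR adjusted p = 6.51e-07). The actin-binding nexilin, *Nexn*, fell by 1.03 and β-tropomyosin, *Tpm2*, by 0.96 on the log2 scale (edgeR adjusted p = 1.1e-05 and 8.54e-07). *Pdlim3*, which codes for a PDZ and LIM domain protein bound to α-actinin, was chosen after its values were seen. It had 257, 272 and 297 counts in GFP and 26, 16 and 17 in CRE, a log2 fold change of −3.87 ± 0.16 SE (edgeR adjusted p = 1.83e-07).

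The myosin light chain kinase *Mylk*, also chosen after its values were seen, went from 11.0 to 5.50 CPM. In the other direction, vinculin, *Vcl*, rose by 0.25 on the log2 scale (edgeR adjusted p = 0.00485), and *Synm*, which codes for synemin and was chosen after its values were seen, rose as well. The other partners that rose, among them a larger rise than that of *Vcl*, are not reported here. With libraries scaled by total count alone, and on FPKM, 12 partners were called lower and 7 higher, and *Cald1*, *Rhoa*, *Myl6* and *Ppp1r12b* lost their lower calls.

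Of 20 transcription factors and cofactors linked to these genes, 19 were tested, 8 fell, 4 rose and 7 did not pass (edgeR), with a median log2 fold change of −0.17. The share that rose was thus close to the 25.5% of all tested genes, beside 25.7% lower. The lower calls were 6 with libraries scaled by total count alone and 4 on FPKM. The median of these factors was smaller in size with total counts, a scaling that moved the median of all tested genes to 0.17. *Srf* itself was at 30.3, 28.6 and 23.4 CPM in GFP and 29.8, 26.8 and 27.7 CPM in CRE, so the groups overlapped (log2 fold change 0.04 ± 0.09 SE, edgeR adjusted p = 0.768). *Mrtfa*, a myocardin-related cofactor of SRF, rose from 48.0 ± 3.06 to 64.9 ± 1.88 CPM (SD, n = 3), by 0.44 on the log2 scale (edgeR adjusted p = 1.35e-04). Its relative *Mrtfb* did not pass, at −0.06. *Myocd*, the gene for myocardin, had 6, 10 and 10 counts in GFP and 5, 5 and 6 in CRE and was too rare to test.

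The zinc finger factors *Gata4* and *Gata6* and the MADS-box factor *Mef2d* were the lowest of the factors that fell, at −0.61, −0.51 and −0.45 (edgeR adjusted p = 6.35e-06, 4.39e-05 and 6.52e-05). *Klf4*, a repressor of smooth muscle genes, and *Elk3*, an ETS factor that binds SRF, rose by 0.20 and 0.15 on the log2 scale (edgeR adjusted p = 0.0296 and 0.024). *Klf4* did not pass with DESeq2 (adjusted p = 0.123). The number of these factors that rose lay between 1 and 4 when any 1 library was left out. It was 1 without GFP replicate 2 or GFP replicate 3, and 2 without CRE replicate 1 or CRE replicate 2.

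**Figure D4:**
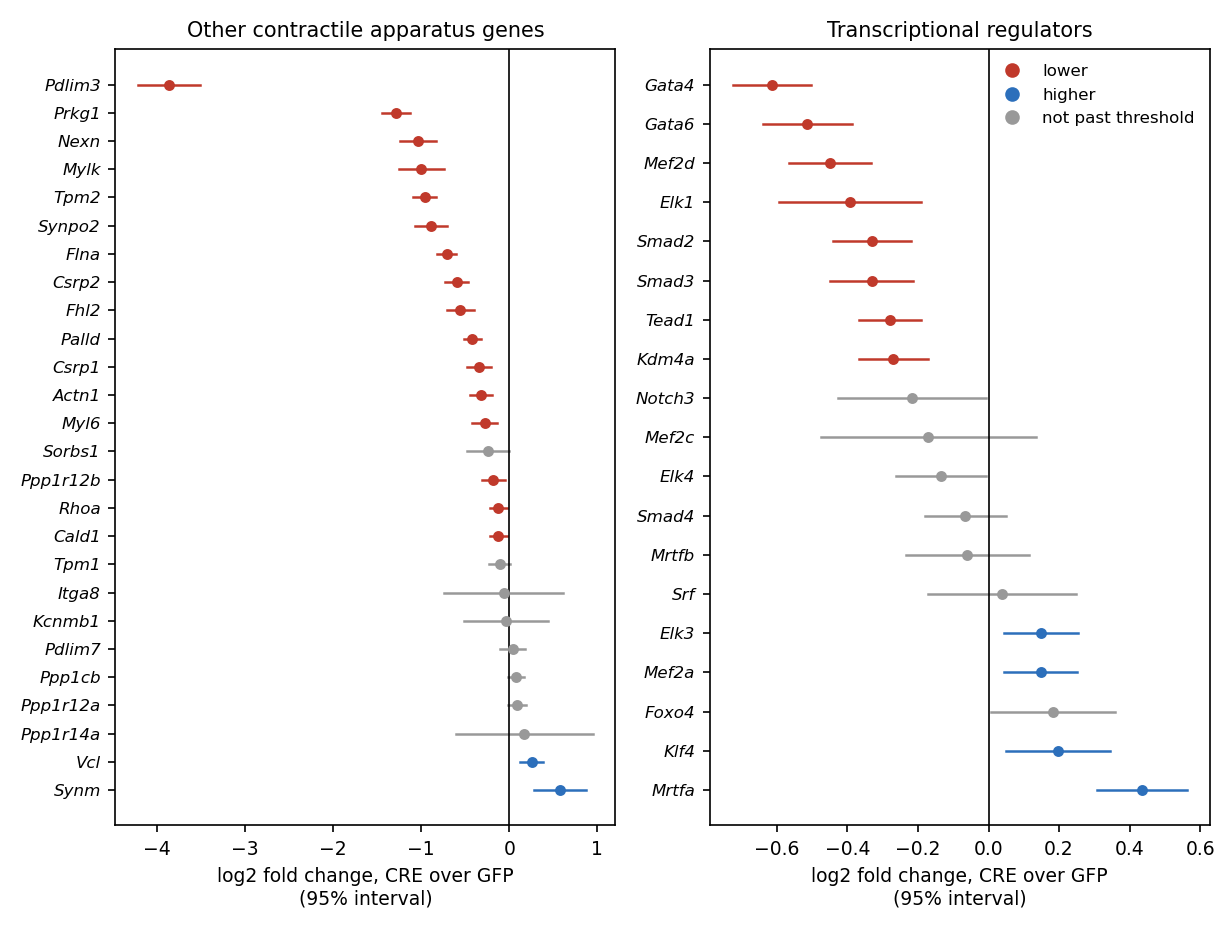
Log2 fold change of CRE over GFP with its 95% interval for the tested partners of the contractile apparatus that are reported here and the tested transcription factors and cofactors, coloured by whether they fell, rose or did not pass the test. *Pdlim3* lies farthest to the left at −3.87, and *Srf* lies at 0.04 with an interval across 0.

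Markers of other cell types were counted in the same libraries, where 25.7% of all tested genes were called lower and 25.5% higher (edgeR). Of 9 pericyte markers, 8 were tested, 4 fell (among them *Rgs5*, from 25.8 to 11.3 CPM) and *Cspg4* rose, and their summed level was 1050 to 1190 CPM in GFP and 871 to 892 CPM in CRE, most of it *Pdgfrb*, with *Higd1b* at 0. Endothelial markers summed to 393 to 439 CPM in GFP and 191 to 218 CPM in CRE, led by *Cdh5*, and 7 of 8 fell. Macrophage markers summed to 58.5 to 66.2 and 34.7 to 38.0 CPM, led by *Cd14*, with 3 of the 6 tested lower. Mesothelial markers, led by *Upk3b*, summed to 7.95 to 9.13 and 8.34 to 11.9 CPM, with 1 lower and 3 higher of the 5 tested. The part of these cells in the members' differences was not tested. Of 13 cardiomyocyte markers none had enough counts to be tested, their sum was 0.902 to 1.14 and 1.48 to 1.66 CPM, and *Myh6*, *Myl3* and *Myl7* were at 0. The 8 skeletal muscle markers summed to 3.30 to 3.79 and 4.82 to 6.55 CPM, led by *Actn3*. Only 2 of them, *Acta1* and *Actn3*, had enough counts to be tested, and *Acta1* passed.

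Within a group, some libraries were high or low for many members. GFP replicate 1 was the highest of its group for 8 of the 9 tested members, with a median deviation of 0.12 on the log2 scale. GFP replicate 2 was the lowest for 6 (−0.11), and CRE replicate 2 was the lowest of its group for 5 (−0.10). These median deviations were smaller than the group difference of each of the 8 lower members, but single members could deviate by more. *Des* had 4.48 CPM in GFP replicate 1 and 2.65 CPM in GFP replicate 2. Over 16 other analyses, the 8 members were lower and past the threshold in each, and *Smtn* in none. The log2 fold change of *Acta2* lay between −1.41 and −1.18 and that of *Myl9* between −1.85 and −1.59. The rare members moved further on log2(FPKM + 1), a setting that changes the measure and its scaling as well as adding a constant, to −0.58 for *Actg2*, −0.39 for *Lmod1*, −0.37 for *Des* and −0.32 for *Myh11*.

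**Figure D5:**
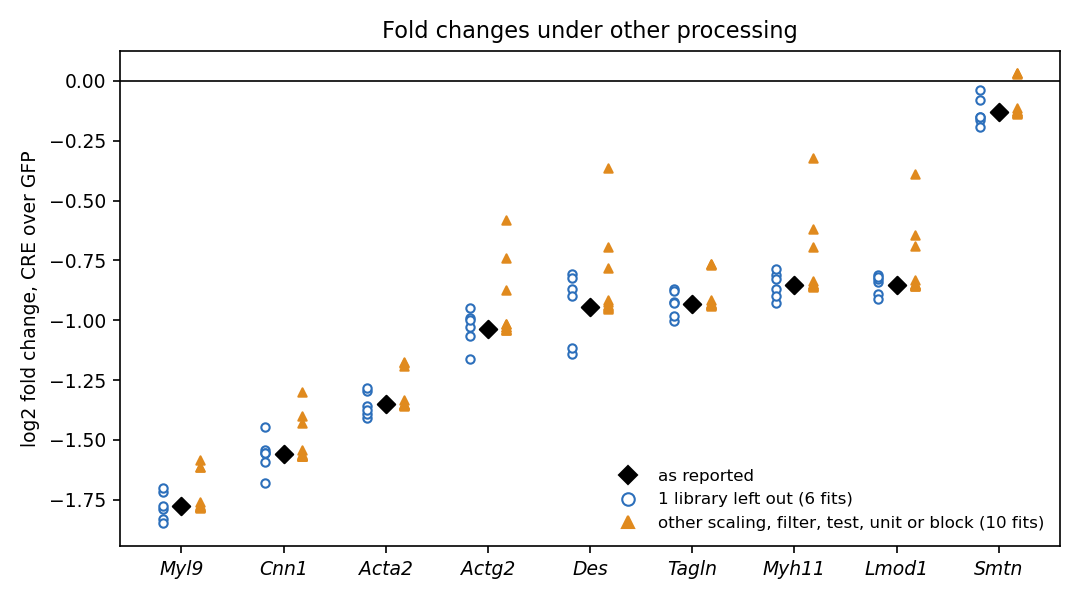
Log2 fold change of each tested member in the chosen analysis and in 16 others, including other scalings, other tests and each library left out in turn. The points of 8 members stay below 0, and those of *Smtn* lie on both sides of 0 between −0.19 and 0.03.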

How the data were processed

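The series holds 6 RNA-seq libraries of fibroblasts from the heart, 3 GFP and 3 CRE, grouped and numbered by their titles. Per the study's methods, reads were trimmed (Trimmomatic), aligned to GRCm38 (HISAT2) and counted per gene (HTSeq-count), and FPKM came from Cufflinks. Versions of these tools and the use of strand in counting are not given in the sources used here. The labels and the methods disagree on the kits for extraction and libraries, and the kits used remain unknown. The authors deposited raw counts and FPKM per gene and library in a single table. Beside them the authors deposited group means, a log2 fold change, a p-value and a false discovery rate of their own comparison, none of which were used.

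The count test was edgeR 4.0.16 in R 4.3.3, in place of DESeq, the tool of the study. Low genes were removed with filterByExpr (minimum count 10, minimum total 15), libraries were scaled by TMM (factors 0.944 to 0.947 for GFP, 1.05 to 1.06 for CRE), and the quasi-likelihood test of CRE against GFP was two-sided, its p-values adjusted (Benjamini-Hochberg) over all 12862 genes tested. Intervals are 95%. Total counts were 17002126 to 20343590 per library. Coordinates and exon overlaps came from GENCODE M21. On simulated data (5 sets of 12862 genes, 200 changed 2-fold), 88.2% of changed genes were recovered and 8.58% of calls were unchanged genes. That share of false calls is above the threshold of 0.05. The simulated sets held far fewer changed genes than the 3306 lower and 3277 higher calls of these data.

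The members and lists were chosen with earlier results of these data known. Named were all members, their tested relatives, and the 3 lowest and 3 highest called partners and regulators with a mean of at least 10 CPM, except 2 partners that rose and are not reported here. The other partners, regulators and markers named were chosen after their values were seen. Alternatives were RLE, upper-quartile and library-size scaling, other filters, DESeq2 1.42.0, limma-voom (limma 3.58.1), limma on log2(FPKM + 1) and log2(FPKM + 0.1), a block for the replicate number, and each library left out in turn. Figures were drawn with matplotlib 3.10.9.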

Additional observations from a re-analysis of the deposited data

How the results depend on the processing

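The 8 members called lower and the absence of higher calls among members were the same in number under all 16 alternatives, and each tested member kept its direction except *Smtn*, which turned to 0.032 with library size alone, 0.029 on log2(FPKM + 1) and 0.031 on log2(FPKM + 0.1), never past the threshold. Those settings raised the median over all tested genes, on the log2 scale, to 0.167, 0.135 and 0.165. Under each of the 3, partner genes called higher were 7 instead of 4. Regulators called lower were 4 instead of 8 on log2(FPKM + 1) and log2(FPKM + 0.1). Leaving out each library in turn, regulators called higher ranged from 1 to 4. The cause was not tested. Same-numbered libraries correlated at 0.028, 0.207 and −0.039 in their deviations from the group means, so the numbers were not taken as pairs, and with the replicate number as a block 8 members were lower and 21 partner genes were called instead of 20. Depth limits *Actc1* and *Myocd*, which were too rare to test, and leaves the widest interval among tested members to *Des*.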
